A study of Mus musculus with 7 samples.

Results

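The genes described here encode the proteins of the cytosolic ribosome in CD4+ T cells of mice with or without a deletion of Kdm6a, an X-linked gene for a demethylase of lysine 27 on histone H3. Members were taken by symbol: protein-coding genes named Rpl or Rps followed by a digit, Rplp0 to Rplp2 and Rpsa, without the Rps6k kinases, and with at least 10 counts summed over the 7 libraries. Of 92 symbols that fitted, 85 of the 39017 rows of the count table remained, 52 of the large subunit, 32 of the small subunit and Rps19bp1. Rps19bp1 matched by name alone, since it encodes a nucleolar protein that binds Rps19. At the edge of the rule, Rpl9-ps1 had 14 counts in all and was kept, and Rpl3l, a paralogue of Rpl3 known from muscle, had 9 and was left out. The other 6 symbols left out, among them Rpl10l and Rps27rt, had 0 to 2 counts each. The members lie on 20 chromosomes, and Rpl10, Rps4x, Rpl36a and Rpl39 are X-linked like Kdm6a.

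All mice were female, of strain C57BL/6, and carried 2 floxed alleles of Kdm6a, and all had experimental autoimmune encephalomyelitis (EAE), in which T cells against myelin attack the nervous system. Conditional knockout (cKO) mice had the CD4-Cre transgene (CD4-Cre +/-; replicates 2, 3, 7 and 12), and wild-type (WT) littermates did not (CD4-Cre -/-; replicates 10, 14 and 19). On day 17 of EAE, lymph node cells were taken and kept for 18 hours with residues 35 to 55 of myelin oligodendrocyte glycoprotein at 25 µg/mL, after which CD4+ T cells were sorted and their RNA sequenced. Cre was present in cKO mice alone, so Cre and the loss of Kdm6a cannot be told apart as sources of a difference. The Cd4 promoter that drives Cre is active from an immature thymocyte stage onward, so the deletion is not limited to mature CD4+ cells. The labels do not say that each library came from its own animal, and p-values therefore measure the spread between these libraries, which may be technical.

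Each cytosolic ribosome holds 1 copy of nearly every ribosomal protein, with the acidic stalk proteins Rplp1 and Rplp2 present in more. A T cell that leaves quiescence after antigen contact has to build ribosomes to grow and divide, and it does so under the control of mTORC1 and Myc. Ribosomal protein mRNAs begin with a run of pyrimidines, called a 5′ terminal oligopyrimidine (TOP) tract, through which mTORC1 controls their translation by way of Larp1. These genes have also left many processed pseudogenes in mammalian genomes, some of them nearly letter for letter like the parent mRNA. An Rpl or Rps protein that is not built into a subunit can bind Mdm2 and so stabilise p53, a role best known for Rpl5 and Rpl11.

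The start of transcription is shown for 6 members, from 20 bases before the annotated start through 20 bases from the start base on, read from RefSeq on GRCm38.p6, with the longest unbroken C and T run that covers the start base or begins at most 3 bases from it in capitals. Rpl18 is on chromosome 7 (45718051 to 45718090), Rpl35 on chromosome 2 (39005112 to 39005151), Rps24 on chromosome 14 (24490658 to 24490697, the one of its 2 annotated starts with the longer run), Rps6 on chromosome 4 (86857348 to 86857387), Rpl4 on chromosome 9 (64173367 to 64173406) and Rps15 on chromosome 10 (80292411 to 80292450). Rpl18, Rpl35 and Rps24 had among the largest negative differences below, Rps6 was the only member higher in every cKO library, and Rpl4 and Rps15 were among the most abundant. The other annotated start of Rps24 (window 24490733 to 24490772) has a run of 2 letters.
Rpl18: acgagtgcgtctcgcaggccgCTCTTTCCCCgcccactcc
Rpl35: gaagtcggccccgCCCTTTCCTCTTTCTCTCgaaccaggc
Rps24: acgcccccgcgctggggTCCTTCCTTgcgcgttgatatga
Rps6: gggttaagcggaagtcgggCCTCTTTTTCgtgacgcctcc
Rpl4: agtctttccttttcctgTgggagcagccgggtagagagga
Rps15: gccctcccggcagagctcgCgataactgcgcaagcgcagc

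RefSeq promoters, 250 bases before to 50 after the start, were found for 63 of the 85 members, some with more than 1 start (74 entries). A C and T run of at least 5 letters covered the start base or began at most 3 bases from it in 39.2% of the members' entries, against 17.8% of all 32851 entries. Runs of at least 8 letters were found in 28.4% of the members' entries, against 5.55% of all, and the longest, in Rpl7a, had 21 letters. At Rpl4 and Rps15 the annotated start base is no pyrimidine and the run in capitals, which lies before it, has 1 letter, although Rpl4 has a longer pyrimidine stretch just upstream. Counted on both strands, CCGGAAG (a match for ETS factors) was in 36.5% of the members' entries, against 8.86% of all. AAGATGGC (a match for Yy1) was in 10.8%, against 2.75% of all, and CACGTG (the E box bound by Myc) in 10.8%, against 7.15%. CTCTTTCC was in 17.6%, against 3.12%. It was counted anywhere in the promoter, so a match need not lie in the C and T run at the start. TATAAA was less frequent in the members' entries, at 9.46%, than in all entries, at 13.6%. These are letter matches and no evidence of binding.

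Recorded levels of the members were very uneven. The table holds raw read counts per gene. They are given here as CPM, counts scaled to a common library size with TMM factors, and levels of different genes are set side by side per kilobase (kb) of annotated exon. That length covers all annotated transcripts of a gene and can exceed the mRNA, which lowers the level per kb. Rps13, for example, had 2691 bases of exon and a transcript of 589. Rplp1, a stalk protein that recruits translation factors, was highest at 1419 CPM per kb over the 7 libraries, followed by Rpl8 and Rpl4, both large subunit proteins, at 914 and 751, and the small subunit gene Rps15 at 749. The lowest tested members were Rps13, Rps23, Rpl35, Rps27 and Rps16, at 0.499, 0.536, 0.564, 0.665 and 0.866 CPM per kb, although their proteins too are needed once in each ribosome. The span between Rplp1 and Rps13 was 2844-fold. Of all CPM in the members, 66.6% were in the 10 most abundant and 0.644% in the 24 tested members under 10 CPM.

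The low levels went with sequence shared between genes. Each member's coding sequence was cut into all its 50-base stretches, and a stretch counted as shared where another annotated gene, pseudogenes included, held it letter for letter. The median share over the 85 members was 89.5%, with 58 members over 80% and 7 under 20%, while 77 mitochondrial ribosomal protein genes had a median of 0. All 24 tested members under 10 CPM were over 80%. Rpl8, with 8.73% shared, and Rps3, with 8.09%, had 914 and 277 CPM per kb. Over the 85 members, the shared percentage and the log2 level per kb had a Pearson correlation of -0.43, and the shared percentage and the level a Spearman correlation of -0.62, a description across genes of the same 7 libraries. High sharing did not always go with a low level: Rpl13a, at 97.5% shared, had 462 CPM per kb. Nor did low sharing always go with a high level. Rpl39l and Rps19bp1, both at 0% shared, had 0.411 and 11.7 CPM per kb. Rpl9-ps1, at 8.78%, had 0.144, the lowest of all members, and Rpl41, at 4.49%, had 86.8.

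**Figure D1:**
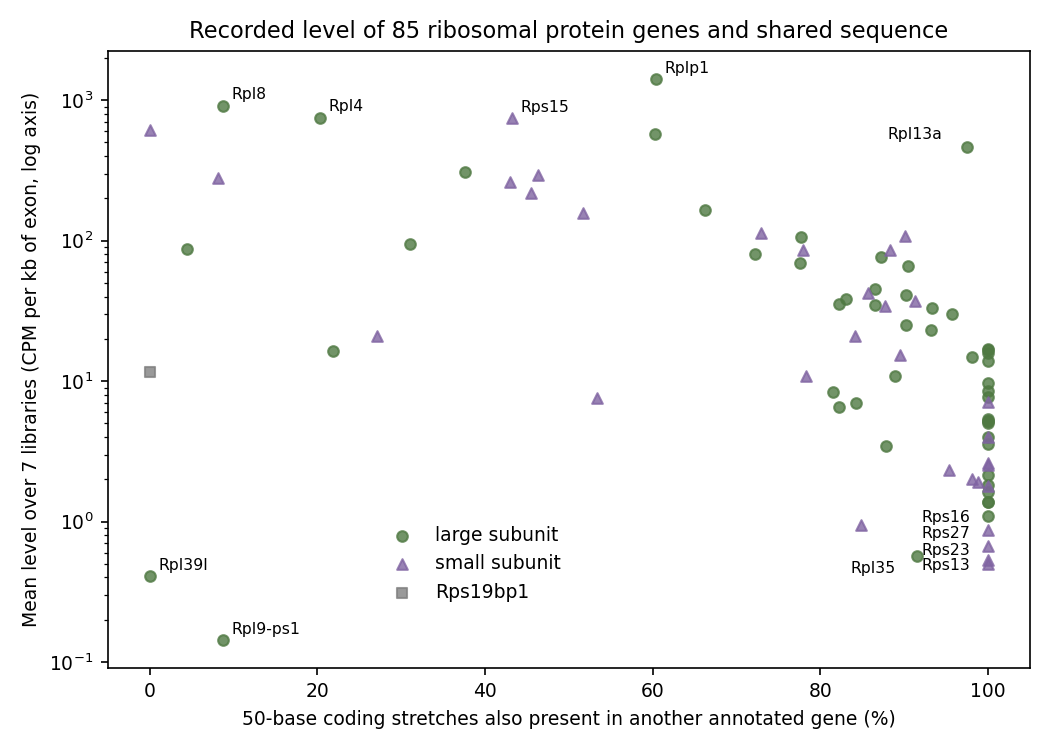
Each point is 1 of the 85 genes. The horizontal axis gives the percentage of its 50-base coding stretches that another annotated gene also holds, and the vertical log axis the mean level over 7 libraries in CPM per kb of exon. Genes at 100% lie between 0.499 and 16.9 CPM per kb, and Rplp1, Rpl8, Rpl4 and Rps15, with 60.4% or less, lie at the top.

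Rps16 and its pseudogene Rps16-ps2 show the pattern in the letters. The first 60 coding bases of Rps16 (chromosome 7, 28350652 to 28353155, small subunit) and the same stretch of Rps16-ps2 (chromosome 5, 129128077 to 129128517) are printed from GENCODE M21 transcripts on GRCm38, with no letter in capitals because none differs.
Rps16: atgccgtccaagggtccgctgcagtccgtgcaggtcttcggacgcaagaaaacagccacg
Rps16-ps2: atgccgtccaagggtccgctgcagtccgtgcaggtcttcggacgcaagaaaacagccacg
Rps16 itself had 0.526, 1.16, 1.26 and 1.56 CPM in cKO replicates 2, 3, 7 and 12, against 1.24, 0.902 and 1.02 CPM in WT replicates 10, 14 and 19. Rps16-ps2 had 84.3, 109, 117 and 117 CPM in the same cKO libraries, against 134, 120 and 135 CPM in WT. Per kb of exon, the pseudogene row was at 264 CPM and the gene row at 0.866 CPM, a ratio of 305, or 106 without regard to length. Rps16-ps2 was lower in every cKO library than in every WT library, while Rps16 overlapped between the groups. The log2 fold change of Rps16-ps2 was -0.28 ± 0.11 SE (adjusted p = 0.177 in the edgeR test described below). All cKO libraries lay below all WT libraries in 11.8% of the tested ribosomal protein pseudogene rows and in 10.7% of all genes.

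The same held for other members. Of 25 members with at least 1 tested pseudogene row of their own symbol, 16 had more CPM per kb in the pseudogene rows than in their own, and 13 had more CPM when length was not taken into account. Those counted per kb alone were Rpl18, Rps15a and Rps12, with 4043, 6270 and 2027 bases of annotated exon against transcripts of 679, 640 and 460. Values of several pseudogene rows were added, and ratios per kb can overstate the pseudogene rows. The ratio per kb was 415 for Rps13, 186 for Rpl38 (needed in the mouse for normal patterning of the axial skeleton), 75.1 for Rpl19, 50.7 for Rpl31, 23.2 for Rps10, 12.2 for Rpl10a and 3.95 for Rpl14. Without regard to length the ratio was 69.8, 73.0, 43.4, 11.5, 4.97, 3.29 and 1.56, in the same order. The 9 members whose own row was higher per kb ran from 0.984 for Rps26 to 0.0109 for Rps2. Summed with its pseudogene row, Rps16 had 108 ± 15.8 CPM in cKO and 131 ± 8.49 CPM in WT (SD, n = 4 and 3), and Rpl38 had 43.8 ± 4.71 CPM in cKO and 44.4 ± 4.30 CPM in WT. Rps23, a protein of the decoding centre, and Rps27 were low, and so were the copies with the most stretches in common. Gm5148, which shares the Rps23 coding sequence, had 10 counts over the 7 libraries, and Rps27rt, which shares that of Rps27, had 1. How reads that match several places were counted is not given in the sources used here, so the share of reads between a member and its copies is uncertain, and so are low levels and the fold changes that rest on them.

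Together the members took a slightly smaller share of counts in cKO than in WT, within the spread of libraries. They held 1.13%, 1.33%, 1.40% and 1.46% of all counts in cKO replicates 2, 3, 7 and 12, against 1.497%, 1.33% and 1.53% in WT replicates 10, 14 and 19. These means were 1.33 ± 0.143% in cKO and 1.45 ± 0.107% in WT (SD, n = 4 and 3), a difference of -0.125 percentage points. The groups overlapped, and cKO replicate 2 was lowest. Without cKO replicate 2 the difference was -0.0588 points. With the predicted gene Gm42418 and the mitochondrial genes taken out of the library totals, the means were 1.42 ± 0.117% in cKO and 1.51 ± 0.112% in WT. That difference was -0.0946 points, and the groups overlapped. Wilson 95% intervals of the single shares reached at most 0.00513 points to either side and cover counting error only. Split by subunit, the large subunit held 0.800 ± 0.0829% in cKO and 0.871 ± 0.0636% in WT, and the small subunit 0.526 ± 0.0601% in cKO and 0.580 ± 0.0428% in WT. Since shares of counts are relative, fewer cells with high ribosomal protein mRNA and less such mRNA per cell cannot be told apart.

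**Figure D2:**
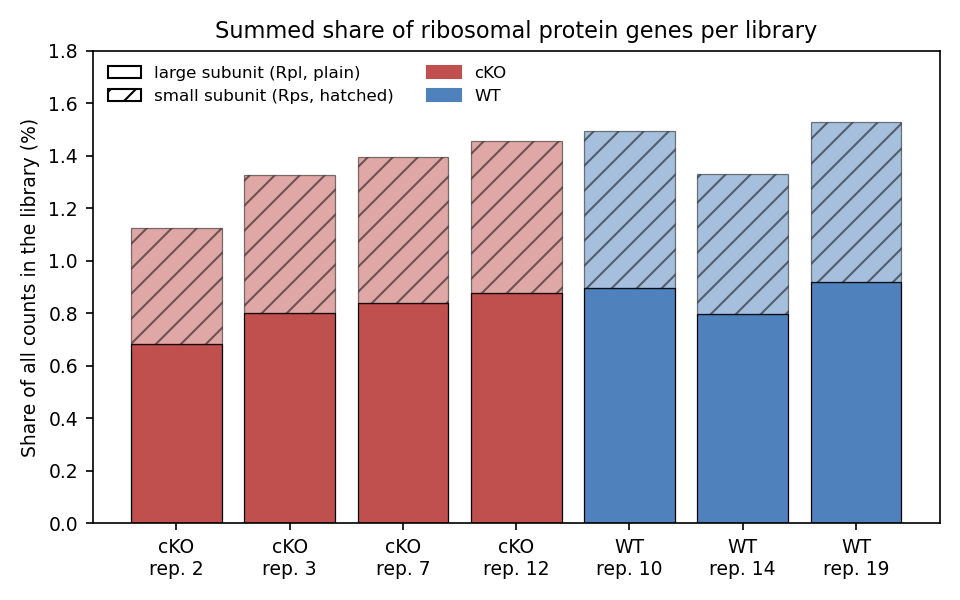
Stacked bars give the percentage of each library's counts in the large (plain) and small (hatched) subunit genes, for 4 cKO and 3 WT libraries. The cKO bars reach 1.13% to 1.46% and the WT bars 1.33% to 1.53%.

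Kdm6a itself was 15.1% lower in CPM in cKO (log2 fold change -0.24 ± 0.06 SE, adjusted p = 0.0414), a call that leaving out cKO replicate 3, 7 or 12 or any 1 WT replicate removed (adjusted p between 0.0538 and 0.173). Library totals were 17910536 to 23721927 counts in cKO and 25360660 to 28697579 in WT, with cKO replicate 2 lowest. The predicted gene Gm42418 took 9.22% of counts in cKO replicate 2, against 3.76% to 4.26% in the other cKO libraries and 2.55% to 2.98% in WT. All 13 CD4 T cell markers listed had counts, with a summed level of 4142 to 4752 CPM in cKO and 3878 to 4438 CPM in WT. All 10 monocyte and macrophage markers had counts, and they summed to 25.6 to 85.2 CPM in cKO, highest in replicate 2, and to 27.6 to 31.9 CPM in WT. B cell markers, 9 of 10 with counts, summed to 373 to 802 CPM in cKO and 397 to 532 CPM in WT, and dendritic cell markers, 8 of 9 with counts, to 31.8 to 61.3 CPM in cKO and 24.4 to 42.8 CPM in WT. Both CD8 T cell markers listed had counts, and their sum did not overlap, at 12.9 to 16.3 CPM in cKO and 9.12 to 11.5 CPM in WT. All 7 NK cell markers had counts, at 60.2 to 75.3 CPM in cKO and 49.9 to 78.3 CPM in WT, and edgeR called 2 of them, Klrb1c and Klre1, higher. Plasma cell markers, all 6 with counts, summed to 13.3 to 53.03 CPM in cKO and 18.8 to 31.5 CPM in WT, with Sdc1 called lower. Gamma delta T cell markers, 3 of 4 with counts, summed to 9.66 to 19.7 CPM in cKO and 7.05 to 14.1 CPM in WT, with Tcrg-C2 called higher and Sox13 lower. Cd6, a CD4 T cell marker, was also called higher. No gene of the B cell, monocyte, dendritic cell, CD8 T cell, neutrophil, erythroid or stromal and endothelial lists was called by edgeR. The part of these values in the ribosomal protein results was not tested directly. With a covariate made of the B cell, monocyte and dendritic cell markers, the median log2 fold change of the members was 0.00 and 41 of 83 were negative.

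Over single genes, edgeR's quasi-likelihood test with Benjamini-Hochberg adjustment over all 15968 genes tested called 0 of 83 members higher in cKO (2.79% of all genes) and 0 lower (3.64% of all genes). Over both directions 6.44% of all genes were called. The 2 members not tested, Rpl39l and Rpl9-ps1, had too few counts for the filter. At an unadjusted p under 0.05 no member was higher (11.1% of all genes) and 14 were lower, 16.9% of the members (10.4% of all genes). DESeq2 called 0 higher (4.84% of all genes) and 4 lower (5.39%), among them Rpl7, Rpl18 and Rpl34. The voom method of limma called 0 higher (5.02%) and 1 lower, Rpl18 (5.81%). In edgeR the lowest adjusted p of any member was 0.0566, for Rpl18. Leaving out WT replicate 14 gave a call of Rpl18 (adjusted p = 0.0346), and leaving out cKO replicate 12 gave a call of Rpl32 (adjusted p = 0.0420).

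Most differences were small and negative. Of 83 members, 65 (78.3%) had a negative log2 fold change, against 47.8% of all genes tested, and the median was -0.10, against 0.01 for all genes. The large subunit had 43 of 50 negative and a median of -0.11, and the small subunit 22 of 32 and a median of -0.08. The sign was most uniform among abundant members: 26 of 27 at or above 100 CPM were negative (median -0.12), with Rps26 the exception at 0.02, while 13 of 24 under 10 CPM were negative (median -0.02). The 34 tested ribosomal protein pseudogene rows had a median of -0.10 with 22 negative, 0 called, and an unadjusted p under 0.05 in 2 higher and 4 lower rows. The median of the members was -0.04 without cKO replicate 2 (56 negative) and -0.06 without WT replicate 19 (62 of 84 negative), and between -0.15 and -0.10 when any other library was left out.

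**Figure D3:**
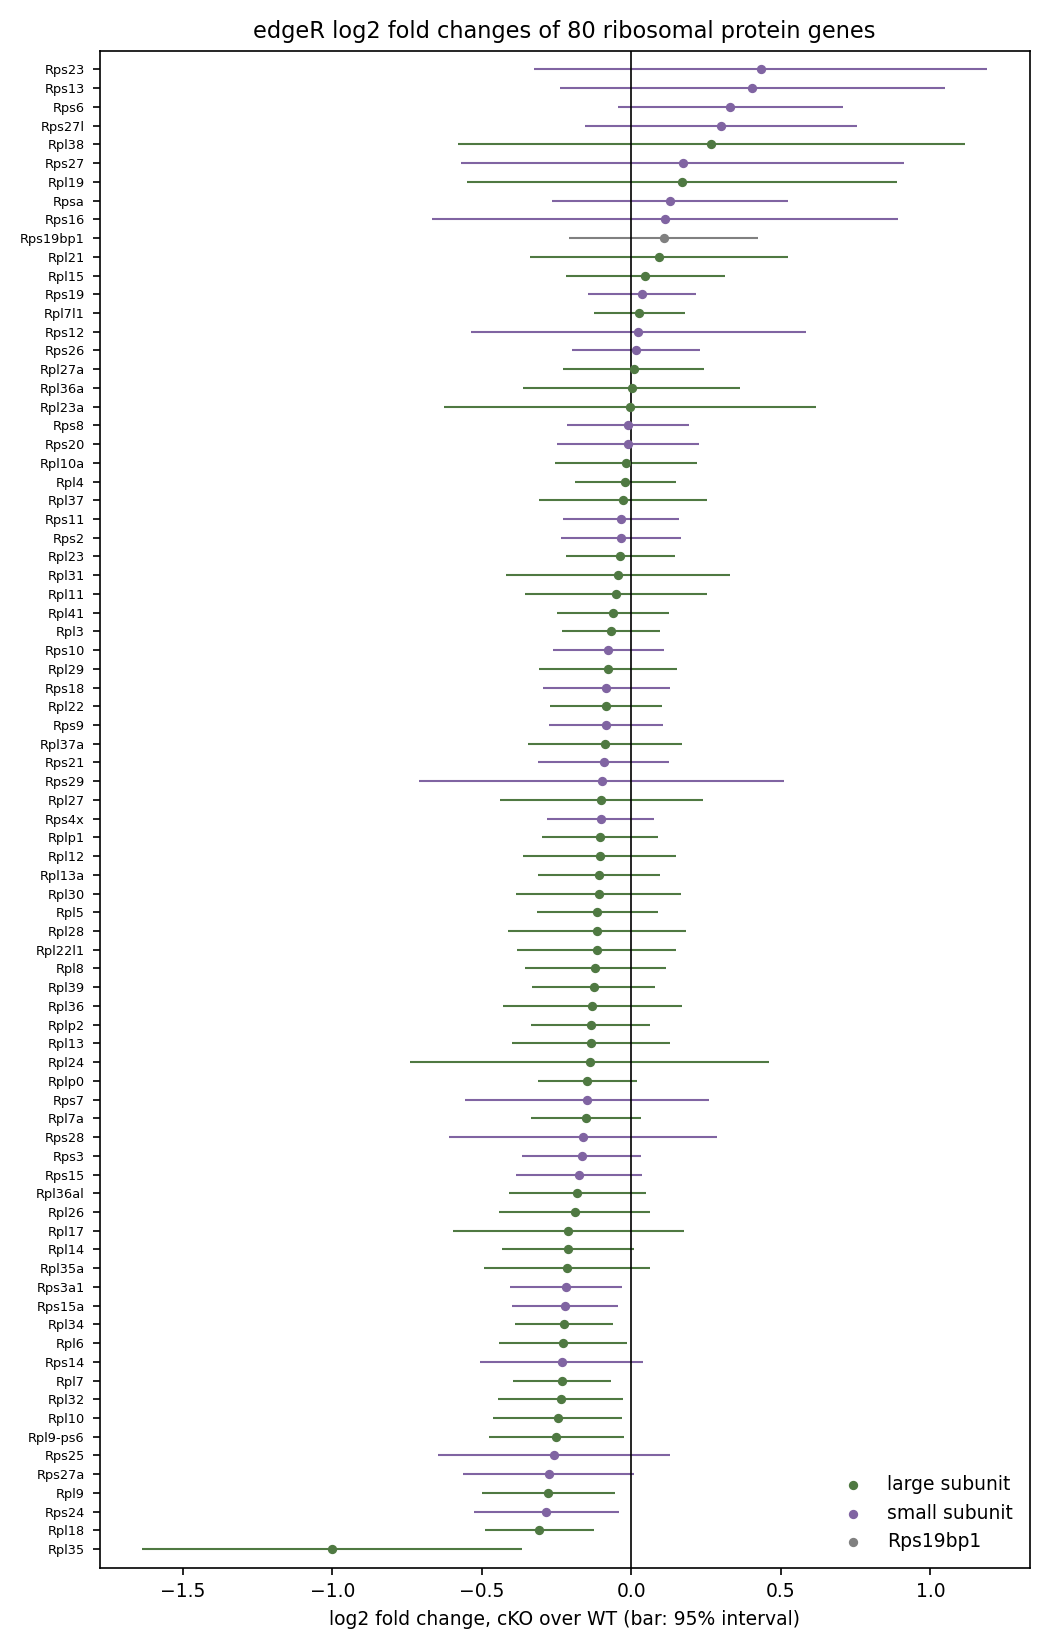
Points are edgeR log2 fold changes, cKO over WT, and bars their 95% intervals, for 80 of the 83 tested genes ordered by value and coloured by subunit. Estimates run from -1.002 for Rpl35 to 0.43 for Rps23, most lie a little left of 0, and the widest bars belong to genes with few counts.

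The intervals bound what these libraries could have missed in the reads counted to each member's own row. They do not cover reads of a member that were counted to its copies. In 59 of 83 members the 95% interval lay within 0.5 on either side of 0 on the log2 scale, and in 79 within 1. Of the 59, 37 had over 80% of coding stretches shared. The exceptions to the wider limit were Rpl35, Rps13, Rps23 and Rpl38, all under 2 CPM. For Rpl4, the most abundant member by CPM at 1507, the interval of the log2 fold change was -0.19 to 0.15, and for Rplp0, the base of the stalk, it was -0.31 to 0.02.

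One library stood apart. The 83 members were lowest in cKO replicate 2 in 63 cases, and highest in WT replicate 19 in 38 cases and in cKO replicate 12 in 22. Measured against each gene's own mean log2 CPM, the median member was at -0.25 in cKO replicate 2, at -0.06, -0.00 and 0.09 in cKO replicates 3, 7 and 12, and at 0.08, -0.02 and 0.13 in WT replicates 10, 14 and 19. The cKO library with the highest median thus lay above 2 of the 3 WT libraries.

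**Figure D4:**
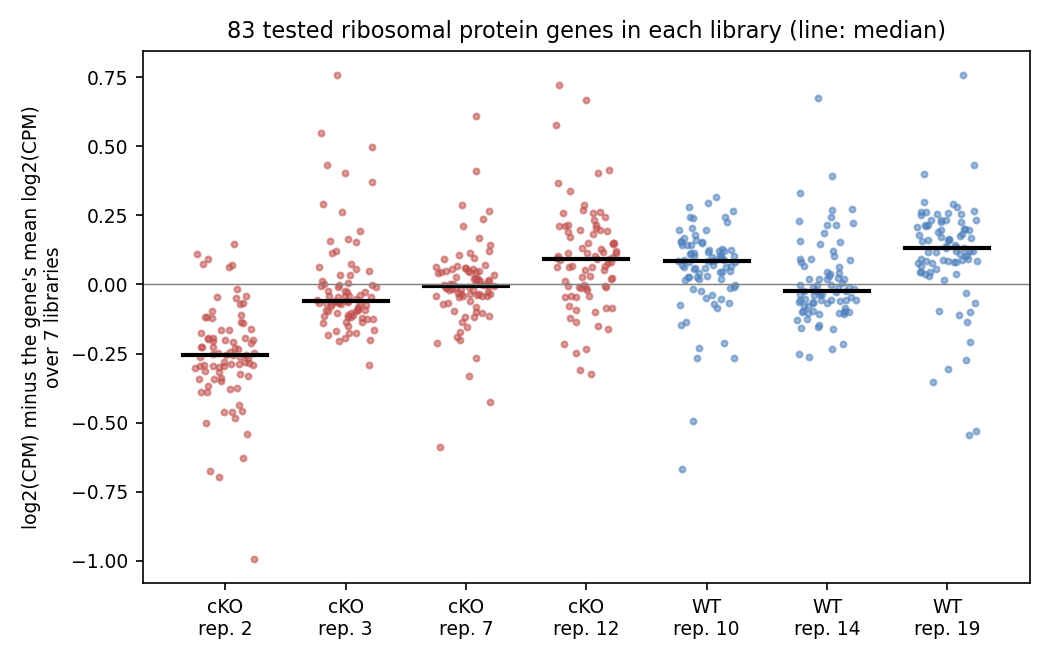
Each point is 1 of the 83 genes in 1 library, as log2 CPM minus that gene's mean over the 7 libraries, and black lines are medians. The median of cKO replicate 2 is -0.25, and those of the other 6 libraries lie between -0.06 and 0.13.

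In 10 members every cKO library was below every WT library, 12% of the members tested (10.7% of all genes). They included Rpl18, Rpl35, Rpl7, Rpl9, Rps15a, Rps24, Rpl10 and Rpl36al. In 1 member, Rps6, every cKO library was above every WT library (10.3% of all genes). The share of lower members was thus close to that of all genes, and the share of higher members was 1 of 83.

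Among the lower members, Rpl18 of the large subunit had 137, 151, 160 and 154 CPM in cKO replicates 2, 3, 7 and 12, against 195, 165 and 200 CPM in WT replicates 10, 14 and 19. WT replicate 14 lay only just above the highest cKO library. The log2 fold change was -0.31 ± 0.08 SE (adjusted p = 0.0566, edgeR). Rpl7, another large subunit protein, had 157, 173, 180 and 183 CPM in the cKO libraries, against 205, 189 and 218 CPM in WT (log2 fold change -0.23 ± 0.07 SE, adjusted p = 0.101). Here too WT replicate 14 was the nearest to the cKO group. In Rpl18 90.3% of coding stretches are shared with other genes, and in Rpl7 77.5%, so both fold changes cover the reads of their own rows only.

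Rps24 encodes a small subunit protein, and the gene is mutated in some people with Diamond-Blackfan anaemia, a failure of red cell formation. It had 49.7, 65.1, 68.0 and 65.1 CPM in cKO replicates 2, 3, 7 and 12, against 73.3, 70.9 and 82.5 CPM in WT replicates 10, 14 and 19 (log2 fold change -0.28 ± 0.11 SE, adjusted p = 0.163, edgeR). The groups did not overlap, and cKO replicate 2 was the lowest library. Other genes share 78.3% of its coding stretches. Summed with Rps24-ps3, Rps24 had 216 ± 25.0 CPM in cKO and 272 ± 23.0 CPM in WT (SD, n = 4 and 3).

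Rpl35, a protein at the exit of the tunnel through which new chains leave, had the largest difference on few counts. It had 7, 14, 10 and 11 counts in cKO replicates 2, 3, 7 and 12, against 21, 30 and 28 counts in WT replicates 10, 14 and 19. In CPM these were 0.409, 0.582, 0.434 and 0.521 in cKO, against 0.812, 1.04 and 1.10 in WT, which gave -1.002 ± 0.28 SE on the log2 scale (adjusted p = 0.072, edgeR). The groups did not overlap, and the 95% interval ran from -1.64 to -0.37. Rpl35 (chromosome 2, 39001580 to 39005624, minus strand) lies within the span of Wdr38 (38997476 to 39006168), which also holds stretches of its coding sequence and had 8, 16, 9 and 13 counts in cKO, against 28, 17 and 19 in WT, so the share of reads between them is uncertain.

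The 5 largest positive differences were in Rps23 (0.43 ± 0.34 SE), Rps13 (0.40 ± 0.29), Rps6 (0.33 ± 0.17), Rps27l (0.30 ± 0.20) and Rpl38 (0.27 ± 0.38), none past the threshold in edgeR (adjusted p between 0.300 and 0.746). Rps6, the small subunit protein phosphorylated by S6 kinases downstream of mTORC1, had 4.38, 5.24, 3.99 and 3.93 CPM in cKO replicates 2, 3, 7 and 12, against 3.29, 3.75 and 3.43 CPM in WT replicates 10, 14 and 19. Every cKO library was above every WT library, on levels at which 100% of its coding stretches are shared with 14 other genes. Rps27l, a paralogue of Rps27 known as a p53 target, had 18.1, 16.7, 13.3 and 26.6 CPM in cKO, against 16.6, 14.98 and 13.9 CPM in WT. The high value was that of cKO replicate 12 alone, and replicate 7 lay below all WT libraries.

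**Figure D5:**
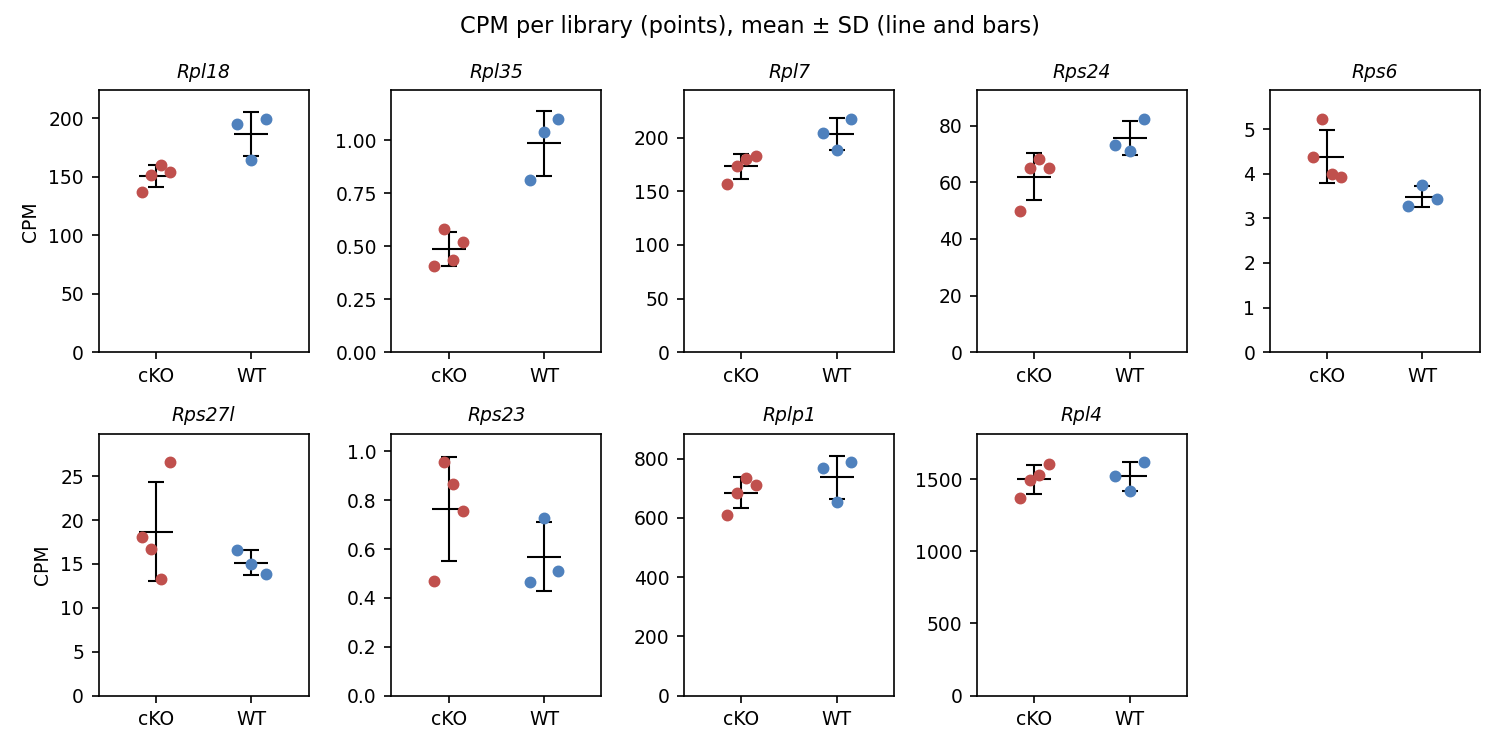
Points are CPM in the 4 cKO (left) and 3 WT (right) libraries of 9 genes, with the mean and SD, on axes that start at 0. Rpl18, Rpl35, Rpl7 and Rps24 do not overlap and are lower in cKO, Rps6 does not overlap and is higher in cKO, and Rps27l, Rps23, Rplp1 and Rpl4 overlap.

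By role in the ribosome, the stalk genes gave tight values. Rplp0 averaged 912 ± 55.4 CPM in cKO and 1009 ± 73.6 CPM in WT, Rplp1 686 ± 53.7 CPM in cKO and 737 ± 72.4 CPM in WT, and Rplp2 330 ± 32.1 CPM in cKO and 363 ± 28.9 CPM in WT (SD, n = 4 and 3). The groups overlapped for all 3, with log2 fold changes of -0.15, -0.10 and -0.14. Rpl3, near the peptidyl transferase centre and with 95.7% of coding stretches shared, had 92.8 ± 6.65 CPM in cKO and 97.4 ± 6.25 CPM in WT (log2 fold change -0.07). Rpl10, which joins the large subunit late in its assembly, had 23.1, 29.6, 27.9 and 25.4 CPM in cKO replicates 2, 3, 7 and 12, against 30.6, 29.8 and 34.1 CPM in WT replicates 10, 14 and 19 (-0.25 ± 0.10 SE, adjusted p = 0.176). In Rpl10 100% of coding stretches are shared with other genes, so these values cover the reads of its own row only.

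The members with known second roles did not differ past the threshold in edgeR either. In Rpl5, Rpl11 and Rps27a 100% of coding stretches are shared, and in Rpsa 98.8%, so their intervals cover the reads of their own rows only. Rpl5 and Rpl11, which form a particle with 5S rRNA that binds Mdm2, had log2 fold changes of -0.11 ± 0.09 SE (95% interval -0.32 to 0.09) and -0.05 ± 0.14 SE (-0.36 to 0.25). Rps19, which in human Diamond-Blackfan anaemia is the gene most often mutated, had 0.04 ± 0.08 SE (-0.14 to 0.22). Rps27a, which encodes a fusion of ubiquitin with a small subunit protein, had -0.28 ± 0.13 SE (-0.56 to 0.01), and Rpsa, also known as a laminin receptor, 0.13 ± 0.18 SE (-0.27 to 0.52). Rps19bp1 had 0.11 ± 0.14 SE (-0.21 to 0.42).

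Of the 4 X-linked members, Rps4x had a log2 fold change of -0.10 ± 0.08 SE, Rpl39 of -0.13 ± 0.09, Rpl36a of 0.00 ± 0.16 and Rpl10 the value above. Their median was -0.11, close to the -0.10 of all members. Coding stretches shared with other genes made up 100% in Rpl10 and Rpl36a, 90.1% in Rps4x and 86.5% in Rpl39. The sign of Rpl36a changed under 9 of the alternatives tried, always with a size of at most 0.06, and that of Rps4x with the marker covariate (0.00). Rps4l, annotated as a transcribed processed pseudogene and so outside the rule, had 2.63, 2.08, 2.47 and 1.705 CPM in cKO replicates 2, 3, 7 and 12, against 1.702, 0.555 and 1.34 CPM in WT replicates 10, 14 and 19, on 16 to 57 counts a library. Every cKO library was above every WT library, though replicates 12 of cKO and 10 of WT all but touched (log2 fold change 0.89 ± 0.36 SE, unadjusted p = 0.0335, adjusted p = 0.188, edgeR).

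Several members have a paralogue whose protein can take the same place in the ribosome, and the ratio of each pair was compared between the groups from its CPM in each library, without regard to length. For X-linked Rpl36a (chromosome X, 134585654 to 134588062) and autosomal Rpl36al (chromosome 12, 69182731 to 69184083), and for Rpl39 (chromosome X, 37082520 to 37085402) and Rpl39l (chromosome 16, 10170226 to 10174911), the first 60 coding bases are shown from GENCODE M21 on GRCm38. Capitals mark the letters of the paralogue that differ, 11 in Rpl36al and 4 in Rpl39l.
Rpl36a: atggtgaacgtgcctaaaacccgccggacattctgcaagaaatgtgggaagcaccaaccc
Rpl36al: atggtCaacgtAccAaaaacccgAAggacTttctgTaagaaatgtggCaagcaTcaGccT
Rpl39: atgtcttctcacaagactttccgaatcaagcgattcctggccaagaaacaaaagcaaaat
Rpl39l: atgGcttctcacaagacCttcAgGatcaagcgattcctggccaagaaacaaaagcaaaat
Over the whole coding sequence, 87.7% of aligned positions were identical in Rpl36a and Rpl36al and 84.97% in Rpl39 and Rpl39l. The ratio of Rpl36al to Rpl36a was 5.65 ± 0.442 in cKO and 6.41 ± 0.581 in WT (SD, n = 4 and 3), with overlapping libraries, and 7.29 per kb of exon over the 7 libraries. In both Rpl36a and Rpl36al 100% of coding stretches are shared with other genes, so this ratio covers the reads of their own rows only. Rpl39l, a testis-enriched paralogue, had 4, 9, 9 and 6 counts in cKO and 14, 14 and 2 in WT, a ratio to Rpl39 of 0.00665 ± 0.00137 in cKO and 0.00708 ± 0.00488 in WT (0.0118 per kb).

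Rpl22 is needed for the development of alpha-beta T cells in the mouse, and its paralogue Rpl22l1 is repressed by Rpl22 protein. Rpl22 had 241, 268, 294 and 274 CPM in cKO replicates 2, 3, 7 and 12, against 304, 257 and 296 CPM in WT replicates 10, 14 and 19. Rpl22l1 had 13.3, 13.1, 12.1 and 15.1 CPM in cKO, against 16.7, 13.6 and 13.2 CPM in WT. The ratio of Rpl22l1 to Rpl22 was 0.04998 ± 0.00670 in cKO and 0.0508 ± 0.00554 in WT (SD, n = 4 and 3), a difference far below the spread of libraries, and 0.0734 per kb. Rps27l stood at 27.6 ± 13.8 times Rps27 in cKO and 25.8 ± 11.7 times in WT, over Rps27 counts of only 11 to 21 a library, and at 31.6 times per kb.

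The ratio of Rpl7l1, a nucleolar relative of Rpl7, to Rpl7 was 0.357, 0.322, 0.315 and 0.349 in cKO replicates 2, 3, 7 and 12, against 0.286, 0.289 and 0.267 in WT replicates 10, 14 and 19. All cKO libraries were above all WT libraries, with means of 0.336 ± 0.0201 in cKO and 0.281 ± 0.0118 in WT (SD, n = 4 and 3), and 0.238 per kb. The ratio was not tested, and 77.5% of the coding stretches of Rpl7 are shared with other genes. Rpl7l1 itself had 0.03 ± 0.07 SE (adjusted p = 0.871, edgeR) as its log2 fold change, and Rpl7 the -0.23 given above. Its sign was negative without cKO replicate 12 (-0.02) or WT replicate 14 (-0.01). Rpl9-ps6 (chromosome 19), annotated as protein-coding and 99.8% identical to Rpl9 in coding sequence, had 12.6 times the level of Rpl9 per kb of annotated exon. That exon length was 3081 bases for Rpl9 and 714 for Rpl9-ps6, while the transcripts used for shared stretches had 680 and 714. Much of the ratio per kb thus comes from annotated length. Without regard to length the CPM of Rpl9-ps6 was 2.97 ± 0.317 times that of Rpl9 in cKO and 2.91 ± 0.307 times in WT, and reads of this pair can hardly be told apart.

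Some ribosomal proteins have symbols outside the rule, and Rack1 and Fau stood at 274 and 1.40 CPM per kb. Rack1, a small subunit protein with 1.44% of coding stretches shared, had 1352 ± 117 CPM in cKO and 1469 ± 120 CPM in WT (log2 fold change -0.12). Fau, which encodes a small subunit protein fused to a ubiquitin-like one, had 1.35 ± 0.163 CPM in cKO and 1.33 ± 0.315 CPM in WT, and 100% of its coding stretches are shared.

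Mitochondrial ribosomal protein genes were less spread in level and lay at 0. The 76 tested ran from 0.672 to 46.7 CPM per kb, with a median log2 fold change of 0.02, 33 negative, and 0 were called by edgeR, by DESeq2 or by limma voom (an unadjusted p under 0.05 was reached by 0 higher and 4 lower). Mrpl24, the highest of them, had 99.2 CPM in cKO and 114 CPM in WT (log2 fold change -0.19 ± 0.07 SE, adjusted p = 0.137).

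Over all pathway gene lists together, mitochondrial ribosomal protein genes included, edgeR called 6 of 410 genes, all higher. Of all genes tested it called 1028 of 15968 (6.44%). Of 37 initiation factor genes and 15 elongation and termination factor genes, edgeR called 0 of each (an unadjusted p under 0.05 was reached by 3 lower, and by 1 higher and 1 lower), while DESeq2 called 0 and 1 and limma voom 1 and 1, all lower. The translocation factor Eef2 had 4634 CPM in cKO and 4652 CPM in WT, and Eef1a1, which brings tRNA to the ribosome, 2207 CPM in cKO and 2206 CPM in WT. Of 29 genes with TOP mRNAs that are no members, edgeR called 0. That list overlaps those of the factors, since Eef2 and Eef1a1 are in it too, and it also holds Rack1. Its values are thus not separate from theirs. In the TOP list an unadjusted p under 0.05 was reached by 2 higher and 8 lower (27.6%, against 10.4% of all genes), and the median log2 fold change was -0.10. DESeq2 called 1 higher and 5 lower, which is 3.45% and 17.2% of the list, against 4.84% and 5.39% of all genes, and limma voom called 1 higher and 3 lower. Pabpc1, the poly(A) binding protein, had 1216 CPM in cKO and 1390 CPM in WT (-0.19 ± 0.06 SE, adjusted p = 0.0797).

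In ribosome assembly, Rrp12, which acts in the maturation and nuclear export of pre-ribosomal particles, was the only 1 of 98 tested genes that edgeR called. DESeq2 called 1 higher and 3 lower, 1.02% and 3.06% of the list, against 4.84% and 5.39% of all genes. By limma voom 1 was higher and 2 were lower, and an unadjusted p under 0.05 in edgeR was reached by 3 higher and 8 lower. Rrp12 rose to 27.6, 27.7, 25.8 and 32.0 CPM in cKO replicates 2, 3, 7 and 12, against 19.7, 16.3 and 22.1 CPM in WT replicates 10, 14 and 19 (log2 fold change 0.55 ± 0.12 SE, adjusted p = 0.0245). The groups did not overlap. Leaving out cKO replicate 3 (adjusted p = 0.051), WT replicate 10 (0.0889) or WT replicate 14 (0.0938) removed the call. Nucleolin (Ncl) had 673 CPM in cKO and 735 CPM in WT (-0.13, adjusted p = 0.255). Of 39 RNA polymerase I and III genes, edgeR and limma voom called 0 and DESeq2 1, which was lower (2.56%, against 5.39% of all genes). An unadjusted p under 0.05 in edgeR was reached by 3 higher and 5 lower. Ubtf, the polymerase I factor of rRNA gene promoters, had 176 CPM in cKO and 154 CPM in WT (0.20 ± 0.07 SE, adjusted p = 0.117).

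Of 53 regulators of growth through mTORC1, Myc and TOP mRNAs, edgeR called Flcn and Fnip2 higher and 0 lower (2.79% and 3.64% of all genes). Both encode partners in a lysosomal complex that acts on mTORC1 signalling. DESeq2 called 5 higher, 9.43% of the list, against 4.84% of all genes. By limma voom 7 were higher (5.02% of all genes), and neither method called any lower. An unadjusted p under 0.05 in edgeR was reached by 7 higher and 2 lower (11.1% and 10.4% of all genes). Flcn had 92.2, 105, 98.2 and 98.1 CPM in cKO replicates 2, 3, 7 and 12, against 71.6, 77.8 and 77.3 CPM in WT replicates 10, 14 and 19 (log2 fold change 0.38 ± 0.06 SE, adjusted p = 0.0081). Fnip2 had 6.13, 4.07, 3.73 and 4.78 CPM in cKO, against 2.166, 2.08 and 2.21 CPM in WT (1.11 ± 0.21 SE, adjusted p = 0.0142). Neither overlapped between the groups. Leaving out WT replicate 10 removed the Flcn call (adjusted p = 0.0501). That of Fnip2 was removed by leaving out any 1 WT library (0.0653, 0.0765 and 0.0579 for replicates 10, 14 and 19) and by the marker covariate (0.0628). Larp1, which binds TOP mRNAs, had 394 CPM in cKO and 423 CPM in WT (-0.10, adjusted p = 0.454). Of 9 ribosomal S6 kinase genes, 0 were called by edgeR, DESeq2 or limma voom, and 0 had an unadjusted p under 0.05 in edgeR.

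Of 23 Mdm2 and p53 target genes, edgeR called Zmat3 and Bbc3 higher and 0 lower (2.79% and 3.64% of all genes). DESeq2 called 2 higher and 0 lower, 8.7% and 0% of the list, against 4.84% and 5.39% of all genes. By limma voom 2 were higher and 1 lower (5.02% and 5.81% of all genes). An unadjusted p under 0.05 in edgeR was reached by 4 higher and 1 lower (11.1% and 10.4% of all genes). The log2 fold change was positive in 18 of the 23 and negative in 5 (21.7%, against 47.8% of all genes). Trp53inp1 of this list was lower in every cKO library than in every WT library (-0.21 ± 0.07 SE, adjusted p = 0.112, edgeR). Zmat3, an RNA-binding protein gene, had 137, 100, 90.1 and 138 CPM in cKO replicates 2, 3, 7 and 12, against 71.9, 74.5 and 70.0 CPM in WT replicates 10, 14 and 19 (log2 fold change 0.69 ± 0.15 SE, adjusted p = 0.0239). Bbc3, which encodes the pro-apoptotic protein Puma, had 76.6, 75.7, 84.3 and 77.3 CPM in cKO, against 63.0, 67.5 and 58.0 CPM in WT (0.32 ± 0.07 SE, adjusted p = 0.0268). Both were free of overlap between the groups. Leaving out any 1 WT library (adjusted p between 0.0943 and 0.101) or adding the marker covariate (0.0648) removed the Zmat3 call. The Bbc3 call went with cKO replicate 7 left out (0.0616), with any 1 WT library left out (0.0503 to 0.109), with the marker covariate (0.129) and with library totals as the only scaling (0.0506).

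Of 13 tested host genes of small nucleolar RNAs, which guide the modification of rRNA, Snhg17 rose, with 28.7, 33.7, 35.0 and 34.2 CPM in cKO replicates 2, 3, 7 and 12, against 26.1, 27.1 and 24.1 CPM in WT replicates 10, 14 and 19. Its log2 fold change was 0.35 ± 0.09 SE (adjusted p = 0.0422), with no overlap, and the call did not survive leaving out any 1 library other than cKO replicate 2 (adjusted p between 0.0721 and 0.161), adding the marker covariate (0.0835), scaling by library totals alone (0.0825) or testing without the filter (0.0546). DESeq2 and limma voom each called 1 host gene higher and 0 lower. For DESeq2 that was 7.69% and 0% of the list, against 4.84% and 5.39% of all genes. An unadjusted p under 0.05 in edgeR was reached by 1 higher and 2 lower. Gas5, a host gene with a TOP mRNA, had 51.8 CPM in cKO and 58.5 CPM in WT (-0.17, adjusted p = 0.357). Of 18 transcription regulators that bind ribosomal protein promoters and 20 genes of ribosome quality control and stress sensing, edgeR called 0 of each. An unadjusted p under 0.05 was reached by 2 higher and 1 lower of the regulators and by 1 higher and 0 lower of the quality control genes. DESeq2 called 1 higher of the regulators (5.56%, against 4.84% of all genes) and 0 of the quality control genes, and limma voom 1 higher of each. Ets1, whose family binds the CCGGAAG letters counted above, had 2152 CPM in cKO and 1923 CPM in WT (0.16 ± 0.06 SE, adjusted p = 0.185).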

How the data were processed

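Raw read counts per Ensembl gene were deposited by the authors for 7 libraries. The values are whole numbers, and the totals of the libraries differ. Per the labels' protocols, a stranded kit with mRNA enrichment was used. Per the submitters' processing notes, bcl2fastq 2.17 and build mm10 were applied. No aligner, counter, strand setting or treatment of reads with several matches is named in the labels or the file. Symbols, biotypes, exon lengths and coding sequences were taken from GENCODE M21, which matched 37693 of 39017 identifiers.

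After filterByExpr and TMM scaling, edgeR 4.0.16 (R 4.3.3) compared cKO with WT by its quasi-likelihood test over all genes, without covariates, at a Benjamini-Hochberg threshold of 0.05. Standard errors and 95% intervals follow from the F statistic. Alternatives were other size factors, TMM factors without the members, DESeq2 1.42.0, voom of limma 3.58.1 with quality weights, 2 other filters, a marker covariate, a threshold of 0.1, removal of Gm42418 and mitochondrial genes, and leaving out each library.

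The members, gene lists and marker lists were chosen with earlier results of these data known. Named were 26 ribosomal protein genes with known roles or paralogues and Kdm6a, the 5 members at each end of level per length and of fold change, members under the filter, and per list up to 4 called or most abundant genes. Rpl32, Rpl34, Rpl9, Rps15a, Rps26, Rpl7a, Rpl41, Rps3, Rpl9-ps6 and the members set beside pseudogenes were named after their values were seen. Protein sequences were not analysed here. A few members are not reported here.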

Additional observations from a re-analysis of the deposited data

Results flagged for a closer look

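In a group of 4 libraries, a value far from the other 3 was looked for in 88 measures, and 6 stood out in the cKO group. Chance alone sets apart about 1 in 20. In cKO replicate 2, Rps15a had 105 CPM (other cKO libraries 126 to 130), Rps24 had 49.7 CPM (65.1 to 68.0), Rpl36al had 16.7 CPM (20.8 to 21.5), Rplp2 had 282 CPM (341 to 351), and Gm42418 had 9.22% of counts (3.76% to 4.26%). In cKO replicate 12, Rpl7l1 had 63.8 CPM (55.9 to 56.8).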

How the results depend on the processing

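No paired analysis was possible because the cKO and WT libraries share no replicate number. Over all genes, edgeR called 1028, DESeq2 1633, limma voom 1729, the fit with the marker covariate 558 and a threshold of 0.1 1644, and leaving out 1 library gave 419 to 1065. No setting called a member higher. Members called lower numbered 0 in edgeR, 4 by DESeq2, 1 by limma voom, 1 with the strict filter (mean CPM of 5 or more, and 1 or more in 3 libraries), 3 at a threshold of 0.1 (among them Rpl18 and Rpl35) and 0 to 1 when a library was left out. Genes of the pathway lists, 6 of 410 called, numbered 19 by DESeq2, 20 by limma voom, 20 at a threshold of 0.1 and 0 to 9 when a library was left out. Kdm6a was not past the threshold with the marker covariate (log2 fold change -0.26, adjusted p = 0.103), and its value ran from -0.27 to -0.21 when a library was left out. The summed share difference ran from -0.186 to -0.0588 points when a library was left out. For 35 named members, 589 of 622 values under alternatives kept direction and side of the threshold, 9 passed it, and 24 changed sign, at sizes of at most 0.073. With limma voom, Rpl11 had 0.017 and Rpl4 0.0048, and with the marker covariate Rpl11 had 0.030, Rpl4 0.060, Rpl8 0.023 and Rps4x 0.0033. Rpl36a had -0.0017 with DESeq2 size factors, -0.0051 with library totals, -0.0032 with TMM factors without the members, -0.0061 without the filter and -0.00074 without Gm42418 and mitochondrial genes. Leaving out a library gave ranges across 0 in Rpl11 (-0.17 to 0.016), Rpl36a (-0.057 to 0.058), Rpl4 (-0.073 to 0.027), Rpl7l1 (-0.021 to 0.046), Rps16 (-0.073 to 0.33), Rps19bp1 (-0.00031 to 0.19), Rps27 (-0.055 to 0.38) and Rpsa (-0.0023 to 0.24). The cause of these shifts was not tested. Members under 2 CPM rest on few counts, which limits what could be detected.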
